A study of Mus musculus with 6 samples.

Results

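Tdgf1 (Cripto) and 9 other genes of the Nodal-Activin pathway, 10 in all among the 20325 genes listed, were followed in mouse neural stem cells on their way to pluripotency. They were picked from a pathway list by gene symbol, Tdgf1 with earlier results of these same libraries in view, and their values between the sorted populations are therefore given as a description. Where fits to all genes call one of them, the call is printed for completeness and supports nothing. Sorted Nanog+E-cadherin+ cells (n = 3) were set against Nanog+E-cadherin- cells (n = 3). Every library came from postnatal day 4 neural stem cells of a mixed 129/Black 6 strain, homozygous for the doxycycline-inducible Stemcca allele (Oct4, Sox2, c-Myc and Klf4) in ColA1 and heterozygous for rtta in Rosa26. All were kept on doxycycline until day 7, then fixed, stained and sorted, so both populations carried the same alleles and the same agent and differed by the E-cadherin gate. The sorted cells are mixed, and whether the replicates were separate cultures or animals is not stated in the labels, and the spread between them may be technical.

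Nodal, Gdf3 and the activins are secreted ligands of the TGF-beta family. They bind activin type II receptors (Acvr2a, Acvr2b), which activate the type I receptor Acvr1b (Alk4), and this phosphorylates Smad2 and Smad3, which enter the nucleus with Smad4. Nodal and Gdf3, unlike the activins, depend on a membrane-tethered co-receptor such as Tdgf1, and Lefty1 and Lefty2 are secreted inhibitors that are themselves induced by the pathway. In mouse embryonic stem cells Tdgf1, Gdf3, Lefty1 and Lefty2 are well-known components of the pluripotent expression programme.

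RefSeq's promoter table (GRCm38.p6) held a window from 250 bases before to 50 bases after the start for 6 of the 10 genes. That of Tdgf1 is shown because Tdgf1 had the widest gap between the populations. It lies at chr9:110946109-110946408 on the minus strand of GRCm38.p6, and the capitals mark matches to GGGNGTGG, a GC or CACCC box of the kind that Klf and Sp factors bind, searched on both strands.
Tdgf1 promoter: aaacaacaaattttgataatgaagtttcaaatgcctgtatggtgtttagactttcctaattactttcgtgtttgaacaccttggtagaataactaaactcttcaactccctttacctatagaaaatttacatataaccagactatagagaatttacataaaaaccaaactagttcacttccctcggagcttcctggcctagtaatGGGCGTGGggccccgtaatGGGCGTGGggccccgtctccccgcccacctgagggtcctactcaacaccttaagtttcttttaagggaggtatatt

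The 2 matches start at positions -45 and -26, counted back from the transcription start, and lie in a stretch of 19 bases that occurs 2 times in a row from position -50. Of 32851 promoter windows in the table, 17.6% held at least 1 such match and 3.32% held 2 or more. Among the 6 genes with a window, Tdgf1 was the one with a match. Its window also held CAGAC, a sequence of the kind that Smad proteins bind, at position -113, as did 49.6% of all windows. It held neither AATNCACA (Foxh1, in 3.60% of windows) nor the octamer ATGCAAAT (in 1.74%). The window was 41.7% G and C, against 54.0% for Nodal and 67.7% to 80.3% for Smad3, Acvr2b, Acvr1b and Acvr2a. These motifs were picked after the Tdgf1 window had been seen, and a match is a description of letters only.

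Total expected counts ran from 12345327 to 20934553 in Nanog+E-cadherin+ libraries and from 8851110 to 39630916 in Nanog+E-cadherin- libraries. A gene at 5 CPM (counts scaled to a common library size) thus had 44.3 counts in the shallowest. Nanog+E-cadherin- replicates 2 and 3 stood apart. Olfactory and vomeronasal receptor genes, 1446 of them, summed to 1886 and 1215 CPM of library totals there. In Nanog+E-cadherin+ they summed to 31.9, 155 and 111.9 CPM in replicates 1 to 3, and in Nanog+E-cadherin- replicate 1 to 36.1 CPM. By this sum, the pair numbered 1 is the one with little of this background. The number of these genes above 0 did not follow the sum. It was 37, 296 and 168 in Nanog+E-cadherin+ and 40, 249 and 113 in Nanog+E-cadherin- replicates 1, 2 and 3. Cdh1 mRNA, which encodes E-cadherin, lay between 104 and 143 CPM in Nanog+E-cadherin+ and between 15.4 and 20.3 CPM in Nanog+E-cadherin-. The neural stem cell markers Nes and Sox1 were present in every library, and of the late pluripotency markers Zfp42 was under 1 CPM in each.

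Tdgf1 was several-fold higher in Nanog+E-cadherin+ than in Nanog+E-cadherin- cells within each replicate number. It had 59.5, 25.7 and 13.46 TPM (a share of all transcripts that takes gene length into account) in Nanog+E-cadherin+ replicates 1, 2 and 3, against 13.58, 2.80 and 6.21 TPM in Nanog+E-cadherin- replicates 1, 2 and 3. The means were 32.9 ± 23.8 TPM in Nanog+E-cadherin+ and 7.53 ± 5.51 TPM in Nanog+E-cadherin- (SD, n = 3 each). Both replicate 1 libraries were the highest of their population, and the populations just overlapped, since Nanog+E-cadherin+ replicate 3 lay below Nanog+E-cadherin- replicate 1. Of the 50-base stretches of Tdgf1 transcripts, 8.86% also occur in the pseudogene Tdgf1-ps1, so some reads may be shared with it. The effect of this on the counts was not measured. In bulk samples, fewer cells that express Tdgf1 and less Tdgf1 per cell cannot be told apart. Tdgf1 exceeded the TPM of 88.5%, 70.1% and 60.9% of all genes in Nanog+E-cadherin+ replicates 1, 2 and 3, and of 67.7%, 41.6% and 48.7% in Nanog+E-cadherin- replicates 1, 2 and 3.

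**Figure D1:**
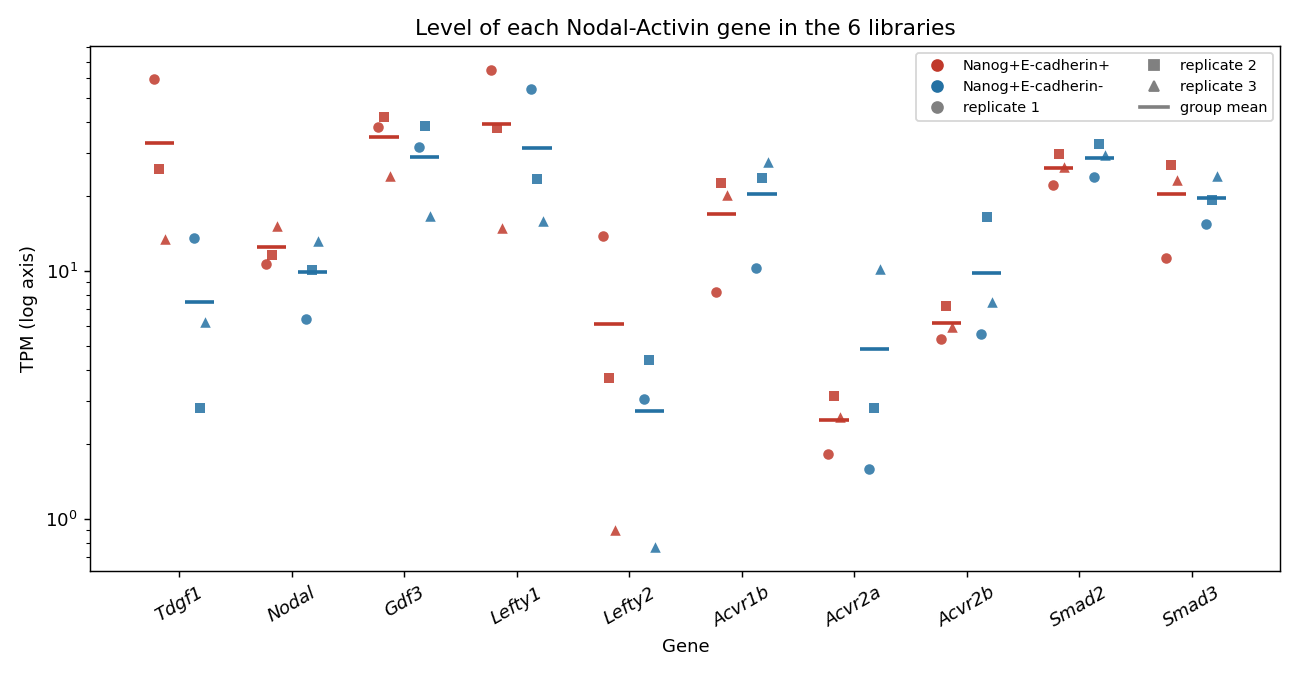
TPM (log axis) of the 10 pathway genes in each library, with Nanog+E-cadherin+ left of Nanog+E-cadherin- for each gene; symbols give the replicate number and lines the group mean. Tdgf1 has means of 32.9 TPM in Nanog+E-cadherin+ and 7.53 TPM in Nanog+E-cadherin-, while the libraries of both populations overlap for each of the 10 genes.

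The counts behind Tdgf1 were 1584, 304 and 263 for Nanog+E-cadherin+ and 660, 29 and 50 for Nanog+E-cadherin-, in order of replicate number. Scaled to CPM, Tdgf1 was 4.70-fold higher in pair 1 (95% exact interval 4.29 to 5.15), 9.16-fold higher in pair 2 (6.25 to 13.9) and 2.51-fold higher in pair 3 (1.85 to 3.47). These intervals cover counting error only. None of them overlaps another, so the size of the ratio varied between pairs by more than counting error. The pair with little background, pair 1, showed a ratio between those of the other pairs. Depth and replicate number also differ between the pairs, and the part of background in the ratios was not tested.

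In edgeR's fit to all 13460 tested genes, Tdgf1 had a log2 fold change of 2.21 ± 0.92 (SE) with population as the only term and 2.23 ± 0.35 (SE) with the replicate number as a block. With population only, 0 of the 10 genes and 0% of all tested genes had an adjusted p under 0.05 by edgeR. DESeq2 with population only called 17 of all genes and 0 of the 10, giving no adjusted p for 9 of them, and limma on TPM called 0 of the 10. At an unadjusted p under 0.05 edgeR had 1 of the 10, Tdgf1, beside 359 of all 13460 genes, 146 higher and 213 lower. With the block, 1 of the 10 was called higher, Tdgf1, beside 0.215% of all genes called higher, and 0 were called lower, beside 0.0892%. Nothing is read from these counts, since the same contrast led to the choice of Tdgf1. The call with the block was lost with scaling by library totals, where the log2 fold change was 2.19 ± 0.35 (SE). With population only, leaving out replicate 1 of Nanog+E-cadherin+ gave 1.02 and leaving out replicate 1 of Nanog+E-cadherin- gave 3.43, while dropping one of the other 4 libraries gave 1.78 to 2.65. Without Nanog+E-cadherin- replicates 2 and 3, which leaves replicate 1 alone in that population, it was 1.15 ± 1.15 (SE).

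**Figure D2:**
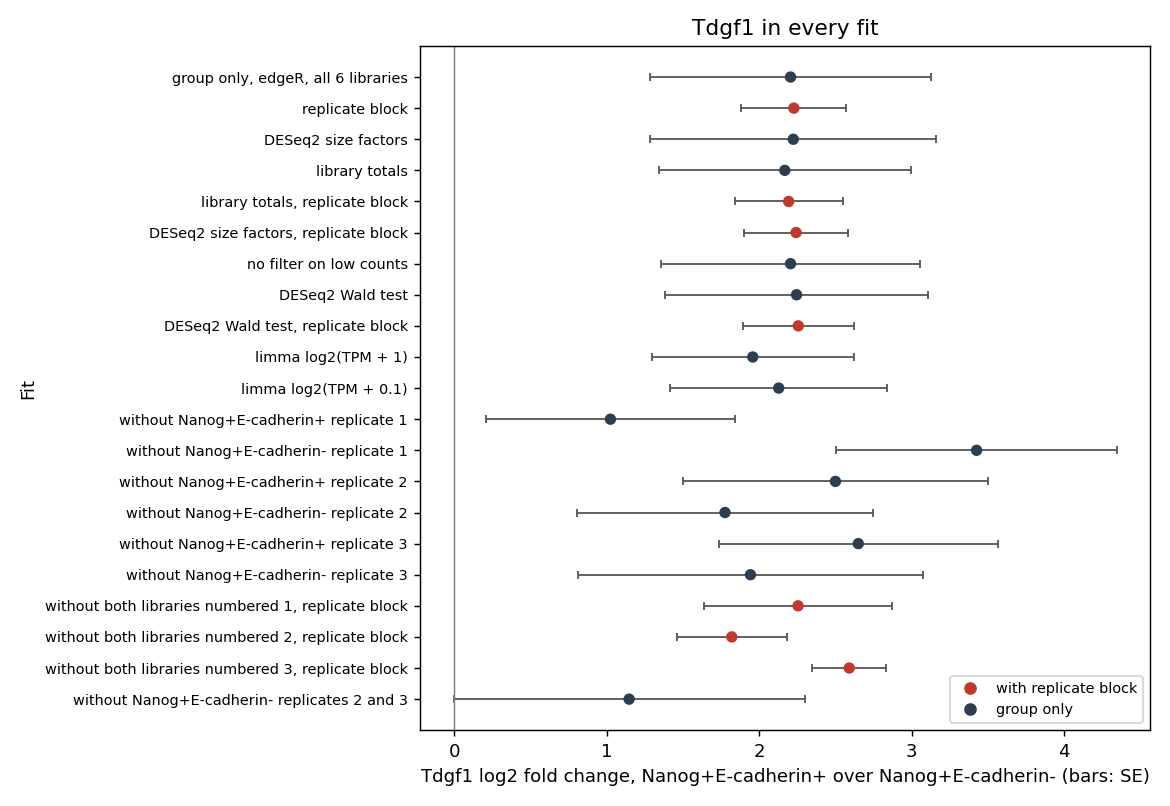
Log2 fold change of Tdgf1, Nanog+E-cadherin+ over Nanog+E-cadherin- (horizontal axis), in each fit (vertical axis), with bars for the SE; red points have the replicate block. All values lie above 0, from 1.02 where Nanog+E-cadherin+ replicate 1 is dropped to 3.43 where Nanog+E-cadherin- replicate 1 is.

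The 14 late pluripotency markers summed to 379, 208 and 244 CPM in Nanog+E-cadherin+ replicates 1, 2 and 3 and to 231, 148 and 159 CPM in Nanog+E-cadherin- replicates 1, 2 and 3. The sums were higher in Nanog+E-cadherin+ in each pair, the populations overlapped, and within Nanog+E-cadherin+ replicate 3 lay above replicate 2, unlike Tdgf1. All 8 that were tested were fitted higher in Nanog+E-cadherin+, with a median log2 fold change of 1.08, and 0 of them passed with population only or with the block. Fgf4, a growth factor made by pluripotent cells, averaged 40.0 ± 11.4 CPM in Nanog+E-cadherin+ and 20.5 ± 14.2 CPM in Nanog+E-cadherin- (SD, n = 3 each), while Nanog averaged 116.6 ± 15.1 CPM in Nanog+E-cadherin+ and 107 ± 28.3 CPM in Nanog+E-cadherin-. The part of these markers in the Tdgf1 values was not tested.

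Of the ligands, Nodal was lower in level than Gdf3 and higher in Nanog+E-cadherin+ in every pair. Nodal, the founding ligand of the pathway, had 10.7, 11.6 and 15.2 TPM in Nanog+E-cadherin+ replicates 1, 2 and 3, against 6.42, 10.1 and 13.2 TPM in Nanog+E-cadherin- replicates 1, 2 and 3. The populations overlapped in TPM, and by that measure both replicate 3 libraries were the highest of their population. In CPM Nanog+E-cadherin+ replicate 1 was the highest of its population, at 17.1 CPM against 16.2 CPM in replicate 3. In CPM, Nodal was 1.78-fold higher in pair 1 (95% exact interval 1.52 to 2.09), 1.14-fold in pair 2 (0.889 to 1.47) and 1.33-fold in pair 3 (1.07 to 1.66), so the interval of pair 2 included no difference. The fitted log2 fold change was 0.50 ± 0.34 with population only and 0.48 ± 0.30 with the block (SE).

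Gdf3, a ligand related to Nodal and known from pluripotent cells, had 38.2, 41.7 and 24.3 TPM in Nanog+E-cadherin+ replicates 1, 2 and 3, against 31.8, 38.4 and 16.7 TPM in Nanog+E-cadherin- replicates 1, 2 and 3. The 2 populations overlapped and replicate 3 was the lowest library of each. The CPM ratios were 1.29 (95% exact interval 1.19 to 1.39), 1.08 (0.9502 to 1.23) and 1.69 (1.41 to 2.04) in pairs 1, 2 and 3. The fitted log2 fold change was 0.34 ± 0.47 with population only and 0.40 ± 0.21 with the block (SE). Dropping Nanog+E-cadherin- replicates 2 and 3 gave -0.16, and dropping Nanog+E-cadherin+ replicate 1 gave -0.01.

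The inhibitors Lefty1 and Lefty2 differed far more between replicate numbers than between the populations. Lefty1 had 64.9, 37.7 and 15.0 TPM in Nanog+E-cadherin+ replicates 1, 2 and 3, against 54.4, 23.5 and 15.9 TPM in Nanog+E-cadherin- replicates 1, 2 and 3. The library numbered 1 was the highest in each population and the one numbered 3 the lowest, and the populations overlapped. In CPM, Lefty1 was 1.28-fold (95% exact interval 1.196 to 1.37), 1.60-fold (1.34 to 1.90) and 1.09-fold (0.867 to 1.39) higher in pairs 1, 2 and 3. The log2 fold change was 0.39 ± 0.81 with population only and 0.39 ± 0.21 with the block (SE), and dropping Nanog+E-cadherin+ replicate 1 turned the value with population only to -0.60, as dropping Nanog+E-cadherin- replicates 2 and 3 turned it to -0.64.

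Lefty2 stood out in a single library. It shares 12.0% of its 50-base stretches with other genes, mostly Lefty1, and Lefty1 shares 17.9%, so reads may be divided between them. Lefty2 had 13.8, 3.72 and 0.90 TPM in Nanog+E-cadherin+ replicates 1, 2 and 3, against 3.04, 4.37 and 0.77 TPM in Nanog+E-cadherin- replicates 1, 2 and 3. Nanog+E-cadherin+ replicate 1 was the highest, replicate 3 was the lowest of each population, and the populations overlapped. The counts were 472, 56 and 23 in Nanog+E-cadherin+ and 190, 58 and 8 in Nanog+E-cadherin- replicates 1, 2 and 3. The ratio in CPM was 4.86 in pair 1 (95% exact interval 4.10 to 5.78), 0.844 in pair 2 (0.574 to 1.24) and 1.37 in pair 3 (0.592 to 3.55), so the interval lay above no difference in pair 1 and included it in pairs 2 and 3. In the fits, the log2 fold change was 1.47 ± 1.15 with population only and 0.89 ± 0.60 with the block (SE), and -0.48 without Nanog+E-cadherin+ replicate 1. Lefty1 was 4.70, 10.1 and 16.6 times as high as Lefty2 in TPM in Nanog+E-cadherin+ replicates 1, 2 and 3, against 17.9, 5.38 and 20.6 times in Nanog+E-cadherin- replicates 1, 2 and 3.

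**Figure D3:**
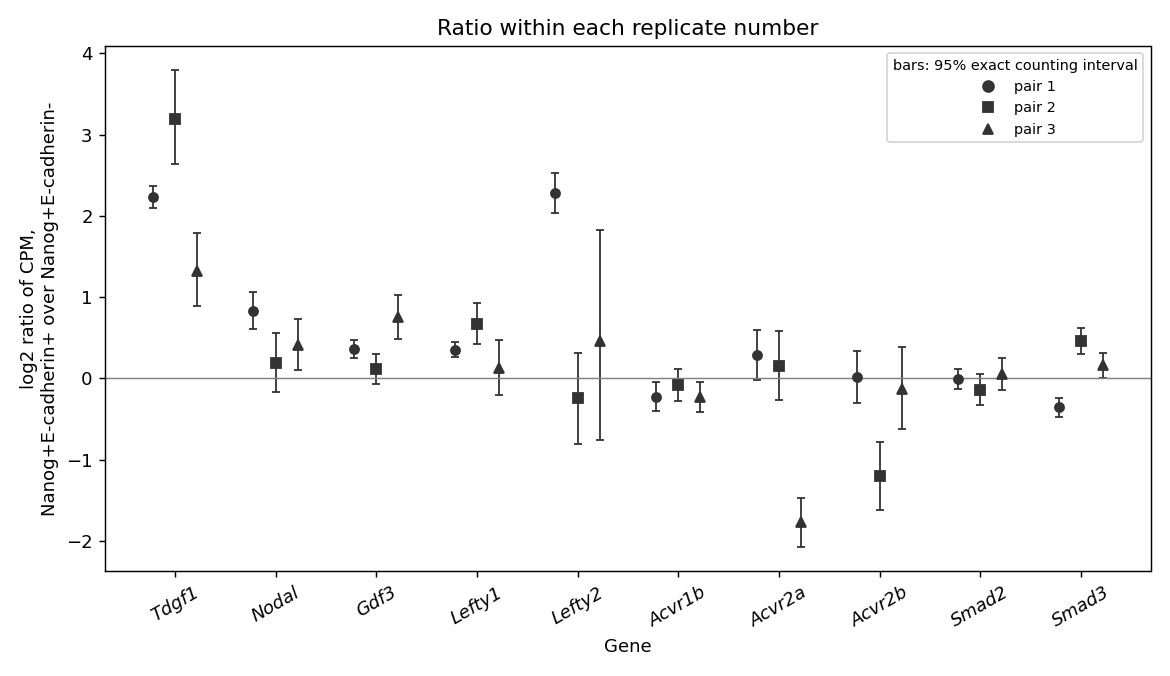
Log2 ratio of CPM, Nanog+E-cadherin+ over Nanog+E-cadherin- (vertical axis), for each pathway gene in the 3 pairs of equal replicate number, with 95% exact counting intervals. Tdgf1 lies above 0 in each pair, Lefty2 in pair 1 with an interval above 0, Acvr2a falls below 0 in pair 3 and Acvr2b in pair 2.

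In CPM, 4 of the 10 genes (Tdgf1, Nodal, Gdf3 and Lefty1) were higher in Nanog+E-cadherin+ in all 3 pairs, beside 18.9% of all tested genes. By the same measure 1 (Acvr1b) was lower in all 3, beside 17.3%. Directions in TPM differed for some genes. In pair 3, Lefty1 (15.0 against 15.9 TPM) and Smad3 (23.3 against 24.2 TPM) were lower in Nanog+E-cadherin+. Smad2, Acvr2b and Acvr1b were lower in TPM in all 3 pairs. In CPM the ratio was 1.04 for Smad2 in pair 3 and 1.02 for Acvr2b in pair 1. Of the 30 ratios within pairs, 12 had a counting interval above no difference and 5 one below it. The share of such intervals over all tested genes was not computed, so no lean of the pathway is read from these counts. In CPM the libraries of both populations overlapped for each of the 10 genes. Among all tested genes 3.74% were higher and 3.25% lower with no overlap. Nothing is read from these shares either.

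The type I receptor gene Acvr1b was slightly lower in Nanog+E-cadherin+ in each pair. It had 8.22, 22.7 and 20.4 TPM in Nanog+E-cadherin+ replicates 1, 2 and 3, against 10.3, 23.8 and 27.6 TPM in Nanog+E-cadherin- replicates 1, 2 and 3. Both replicate 1 libraries were the lowest of their population, the reverse of Lefty1, and the populations overlapped. The CPM ratios were 0.857 (95% exact interval 0.757 to 0.968), 0.946 (0.827 to 1.08) and 0.855 (0.754 to 0.972) in pairs 1, 2 and 3. The log2 fold change was -0.17 ± 0.32 with population only and -0.18 ± 0.19 with the block (SE), and 0.30 without Nanog+E-cadherin- replicates 2 and 3.

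The type II receptor genes each had 1 library far above the rest, in Nanog+E-cadherin-. Acvr2a had 1.83, 3.13 and 2.57 TPM in Nanog+E-cadherin+ replicates 1, 2 and 3, against 1.59, 2.79 and 10.2 TPM in Nanog+E-cadherin- replicates 1, 2 and 3. Nanog+E-cadherin- replicate 3 was thus the highest and the other 5 libraries overlapped. The CPM ratio was 1.23 (95% exact interval 0.990 to 1.51), 1.11 (0.835 to 1.49) and 0.293 (0.237 to 0.36) in pairs 1, 2 and 3. Its fitted log2 fold change of -0.73 ± 0.58 with population only (SE) was 0.19 without that library, whose background sum was 1215 CPM. Part of Acvr2a is shared with the overlapping gene Orc4, which had 20.8 CPM in Nanog+E-cadherin+ replicate 3 and 19.5 CPM in Nanog+E-cadherin- replicate 3.

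Acvr2b had 5.30, 7.22 and 5.93 TPM in Nanog+E-cadherin+ replicates 1, 2 and 3, against 5.59, 16.5 and 7.48 TPM in Nanog+E-cadherin- replicates 1, 2 and 3. Here Nanog+E-cadherin- replicate 2 was the highest, with a background sum of 1886 CPM. The CPM ratio was 1.02 (95% exact interval 0.811 to 1.27), 0.437 (0.327 to 0.580) and 0.918 (0.652 to 1.30) in pairs 1, 2 and 3. The log2 fold change was -0.52 ± 0.49 with population only (SE) and -0.06 without that library. The part of the background in either gene was not tested. In pair 1, which has little background, the intervals of both genes included no difference. So did that of Acvr2a in pair 2 and that of Acvr2b in pair 3. The Nanog+E-cadherin- libraries of those pairs had background sums of 1886 and 1215 CPM.

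Of the effector genes, Smad2 was close to equal in both populations and Smad3 differed in direction between pairs. Smad2 had 22.2, 29.6 and 26.3 TPM in Nanog+E-cadherin+ replicates 1, 2 and 3, against 23.9, 32.5 and 29.4 TPM in Nanog+E-cadherin- replicates 1, 2 and 3. The populations overlapped, and each of the 3 CPM ratios, 0.994, 0.908 and 1.04, had a counting interval that included no difference, the widest reaching from 0.904 to 1.19 in pair 3. In edgeR, the log2 fold change was -0.03 ± 0.23 with population only and -0.03 ± 0.19 with the block (SE).

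Smad3 had 11.3, 26.9 and 23.3 TPM in Nanog+E-cadherin+ replicates 1, 2 and 3, against 15.5, 19.4 and 24.2 TPM in Nanog+E-cadherin- replicates 1, 2 and 3. In TPM replicate 1 was the lowest of each population. In CPM this held for Nanog+E-cadherin+ only. Nanog+E-cadherin- had 56.9, 46.8 and 55.0 CPM in replicates 1, 2 and 3, with replicate 1 the highest. The CPM of Smad3 was lower in Nanog+E-cadherin+ in pair 1, with a ratio of 0.782 (95% exact interval 0.720 to 0.849). It was higher in pairs 2 and 3, at 1.38 (1.24 to 1.54) and 1.12 (1.01 to 1.24). The log2 fold change was 0.10 ± 0.23 with population only and 0.09 ± 0.21 with the block (SE).

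By mean TPM the order in Nanog+E-cadherin+ was Lefty1 (39.2), Gdf3 (34.7), Tdgf1 (32.9), Smad2 (26.0), Smad3 (20.5), Acvr1b (17.1), Nodal (12.5), Acvr2b (6.15), Lefty2 (6.14) and Acvr2a (2.51). Of the 9 pairs of neighbours, 1 was separate in all libraries, with Nodal above Acvr2b. In Nanog+E-cadherin- the order was Lefty1 (31.3), Gdf3 (29.0), Smad2 (28.6), Acvr1b (20.6), Smad3 (19.7), Nodal (9.91), Acvr2b (9.85), Tdgf1 (7.53), Acvr2a (4.85) and Lefty2 (2.73). There Smad3 lay above Nodal in all libraries, and the other neighbours overlapped. Tdgf1 was the gene with the largest change of place, being the third in Nanog+E-cadherin+ and the eighth in Nanog+E-cadherin-. Within libraries, the TPM of the co-receptor Tdgf1 was 5.57, 2.22 and 0.885 times that of its ligand Nodal in Nanog+E-cadherin+ replicates 1, 2 and 3, against 2.12, 0.278 and 0.470 times in Nanog+E-cadherin- replicates 1, 2 and 3.

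The 10 genes divided by where their spread lay. For Tdgf1, 48.1% of the sum of squares of log2 CPM over the 6 libraries lay between the populations and 46.3% between replicate numbers, with a 34.7-fold range from lowest to highest library. Nodal had the largest share between populations, 54.9%, of a small 1.78-fold range. For Lefty1, Smad2, Acvr1b, Gdf3 and Lefty2 between 82.7% and 95.8% lay between replicate numbers, with ranges from 1.32-fold for Smad2 to 30.95-fold for Lefty2. For Smad3 75.3% and for Acvr2a 49.96% lay in neither. Acvr2b was divided into 23.4% between populations, 39.6% between replicate numbers and 36.95% in neither. The shares are not on an equal footing, since the libraries fall into more replicate numbers than populations. With no real difference, replicate number and the rest would each be expected to take more than population. The shares were not adjusted for this.

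**Figure D4:**
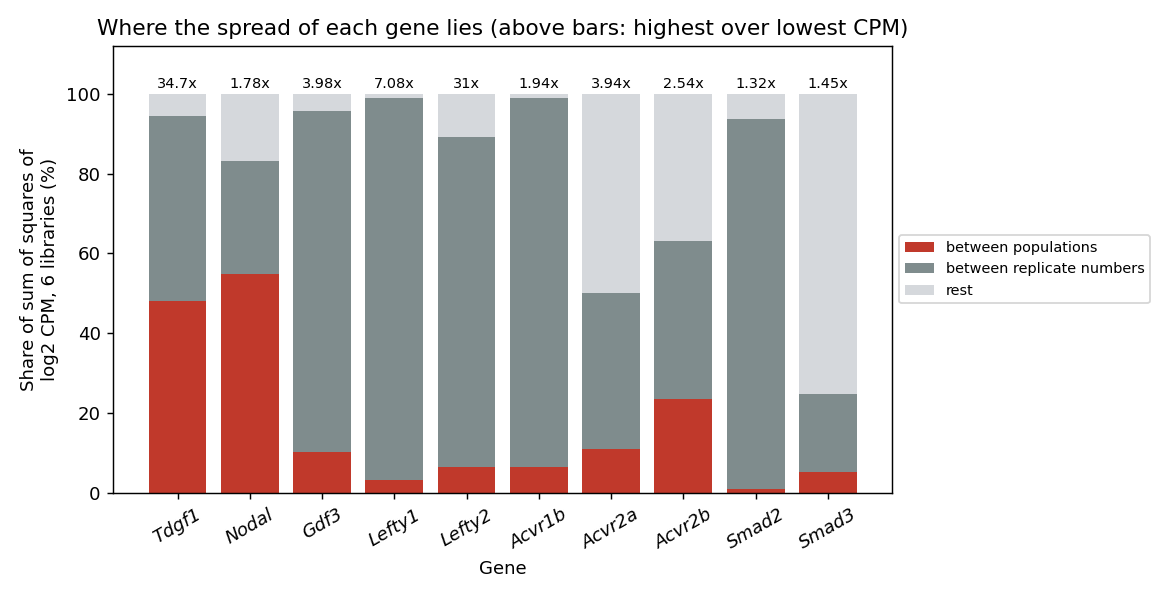
Share of the sum of squares of log2 CPM over the 6 libraries (vertical axis, percent) that lies between the populations, between the replicate numbers or in the rest, for each pathway gene; the number printed over each bar is the ratio of its highest to its lowest CPM. Replicate number takes 95.8% for Lefty1, and the populations take 48.1% for Tdgf1.

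Lefty1, Gdf3, Lefty2 and Smad2 were high and low in much the same libraries, and Acvr1b in the opposite ones. Over the 6 libraries, log2(CPM + 1) of Lefty1 had a Pearson r of 0.88 with Gdf3, 0.88 with Lefty2, 0.90 with Smad2 and -0.94 with Acvr1b. For Tdgf1, r was 0.77 with Lefty1, 0.57 with Nodal and -0.82 with Acvr1b. The libraries differ in depth and replicate number, and the part of these in r was not tested. Lists of other cell types also differed between replicate numbers. Neuron markers (9 measured) summed to 847, 176 and 136 CPM in Nanog+E-cadherin+ replicates 1, 2 and 3 and to 1097, 376 and 212 CPM in Nanog+E-cadherin- replicates 1, 2 and 3. Astrocyte markers (6) summed to 308, 796 and 1398 CPM in Nanog+E-cadherin+ replicates 1, 2 and 3 and to 227, 691 and 1049 CPM in Nanog+E-cadherin- replicates 1, 2 and 3. The neuron sums were lower in Nanog+E-cadherin+ in every pair. Among the 8 neuron markers that passed the filter, 6 had negative fitted values, and the median of the 8 was -1.25 on the log2 scale. By edgeR 0 were called with population only, with 3 lower at an unadjusted p under 0.05, and 1 was called lower with the block. It was Tubb3, a neuronal tubulin, which fell by 1.27 ± 0.17 (SE) on the log2 scale (edgeR adjusted p = 0.037). Stmn2, the other leading gene of that list, did not fall. Its blocked log2 fold change was 0.03 ± 0.14 (SE), with means of 212 CPM in Nanog+E-cadherin+ and 191 CPM in Nanog+E-cadherin-. Of the 8, 3 were lower with no overlap, where 3.25% of all genes were. All 6 astrocyte markers were fitted higher, and 0 of them were called. Both replicate 1 libraries were the richest in neuron and the poorest in astrocyte markers, and Lefty1 was highest in the same libraries. These 2 libraries also had the highest late pluripotency sums of their populations, 379 CPM in Nanog+E-cadherin+ and 231 CPM in Nanog+E-cadherin-. Their neural stem sums were the lowest, 582 CPM in Nanog+E-cadherin+ and 807 CPM in Nanog+E-cadherin-.

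Among the 10 neural stem markers, which summed to between 582 and 1033 CPM in Nanog+E-cadherin+ and between 807 and 1120 CPM in Nanog+E-cadherin-, 2 were fitted higher in Nanog+E-cadherin+. Oligodendrocyte lineage markers (6) summed to between 76.2 and 171.5 CPM in Nanog+E-cadherin+ and between 66.4 and 233 CPM in Nanog+E-cadherin-. Primitive and visceral endoderm markers (8), which stand for a tissue that makes Nodal inhibitors in the embryo, summed to between 11.3 and 50.6 CPM in Nanog+E-cadherin+ and between 8.16 and 27.1 CPM in Nanog+E-cadherin-. Most of that sum was Dab2, while Gata4, Gata6, Afp, Ttr and Hnf4a were each under 1 CPM in every library. The part of any of these lists in the values of the 10 genes was not tested.

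Other genes of the pathway were read from 5 lists of 49 genes, of which 33 passed the filter on low counts. By edgeR with population only 0 of the 33 were called in either direction, with 0 at an unadjusted p under 0.05. With the block 0 were called, beside 0.215% of all genes called higher and 0.0892% lower, and 1, Crebbp, was lower at an unadjusted p under 0.05, as were 698 of all 13460 genes, with 742 higher. DESeq2 called 0 of the 49 with or without the block, giving no adjusted p for 15 and 35 of them, and limma on TPM called 0 of the 33. The median log2 fold change of the 33 was -0.02 with population only and 0.009 with the block, against -0.01 and 0.02 over all genes.

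**Figure D5:**
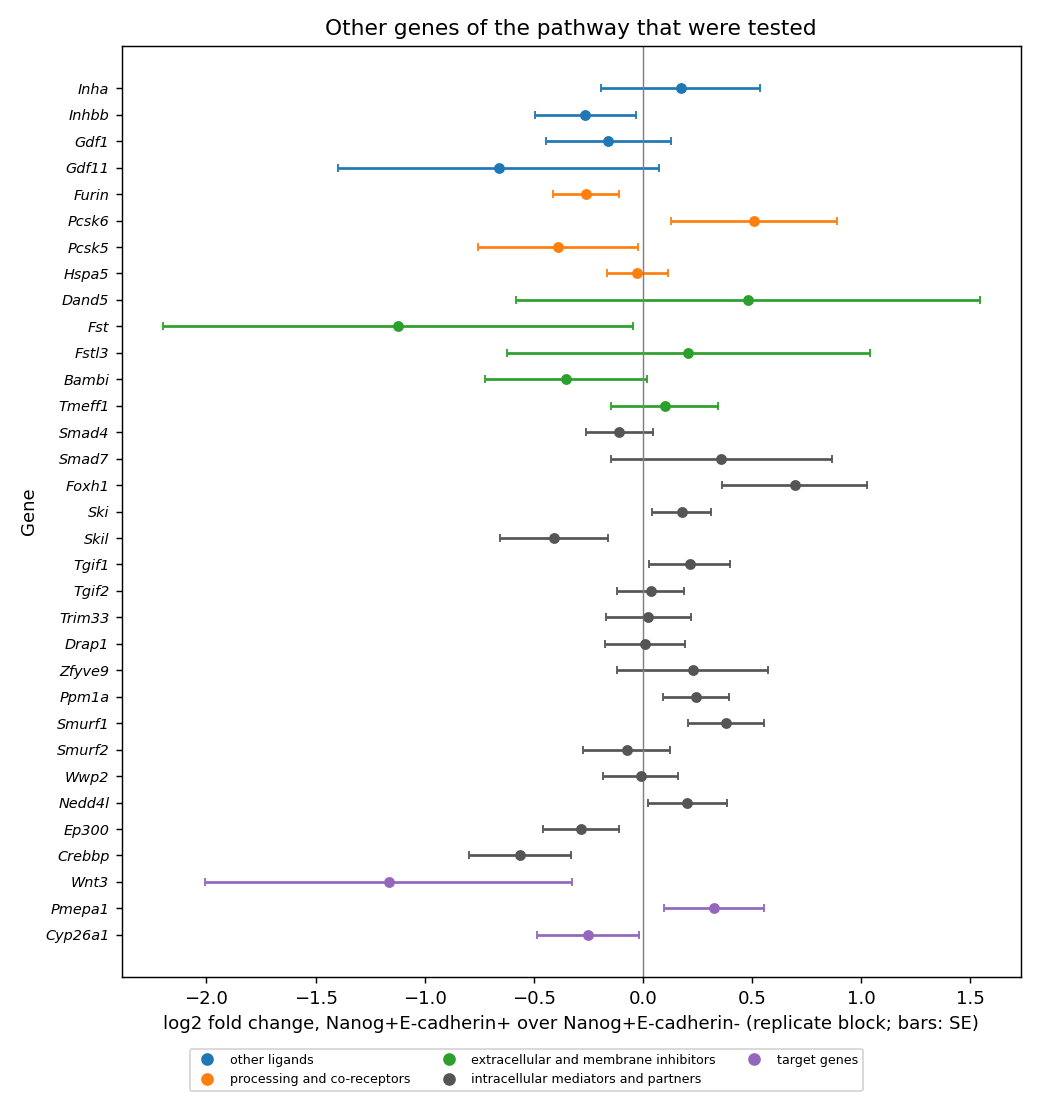
Log2 fold change, Nanog+E-cadherin+ over Nanog+E-cadherin- (horizontal axis), with the replicate block and its SE, for the 33 other pathway genes tested (vertical axis), coloured by list. The values lie around 0 and none passed an adjusted p of 0.05; Foxh1 stands at 0.69 and Wnt3 at -1.17.

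Among other ligands, Inhbb, an activin subunit, averaged 31.5 ± 11.1 CPM in Nanog+E-cadherin+ and 38.8 ± 19.6 CPM in Nanog+E-cadherin- (SD, n = 3 each), while Inhba, the subunit of activin A, had at most 9 counts in any library. Gdf11, a ligand of the same receptors, averaged 3.47 ± 1.97 CPM in Nanog+E-cadherin+ and 5.89 ± 5.15 CPM in Nanog+E-cadherin- (SD, n = 3 each). Of the proteases that cut the Nodal precursor, Furin averaged 90.6 ± 34.5 CPM in Nanog+E-cadherin+ and 106.2 ± 33.6 CPM in Nanog+E-cadherin-, with a blocked log2 fold change of -0.26 ± 0.15 (SE). Pcsk6 averaged 11.5 ± 7.65 CPM in Nanog+E-cadherin+ and 7.52 ± 3.37 CPM in Nanog+E-cadherin-, with one of 0.51 ± 0.38 (SE). Cfc1 (Cryptic), the other co-receptor of the Tdgf1 family, had at most 1 count in any library, below the floor of 3 counts, and Acvr1c (Alk7), the alternative type I receptor, at most 12.

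Among mediators and inhibitors, Foxh1, the DNA-binding partner of Smad2, averaged 15.3 ± 6.87 CPM in Nanog+E-cadherin+ and 9.50 ± 3.97 CPM in Nanog+E-cadherin- (SD, n = 3 each). It was higher in all 3 pairs, with a blocked log2 fold change of 0.69 ± 0.33 (SE). Its populations overlapped in CPM. In TPM they did not, with 19.4 to 25.65 TPM in Nanog+E-cadherin+ and 10.1 to 18.3 TPM in Nanog+E-cadherin-. The share of all genes with no overlap in TPM was not computed. Smad4, the common partner Smad, averaged 88.4 ± 5.79 CPM in Nanog+E-cadherin+ and 95.2 ± 4.86 CPM in Nanog+E-cadherin-. The inhibitory Smad7 had a blocked log2 fold change of 0.36 ± 0.51, and Skil, a repressor of Smad activity, one of -0.41 ± 0.25 (SE). The ubiquitin ligase Smurf1 lay between 74.9 and 93.3 CPM in Nanog+E-cadherin+ and between 54.5 and 71.6 CPM in Nanog+E-cadherin-, with a blocked log2 fold change of 0.38 ± 0.18 (SE). It was the single one of the 33 to be higher with no overlap in CPM, where 3.74% of all genes were, and its populations overlapped in TPM. Crebbp, a coactivator, had one of -0.56 ± 0.23 (SE). Without Nanog+E-cadherin- replicates 2 and 3, the population-only value was 0.17 for Crebbp, 0.32 for Furin, 0.30 for Inhbb and 1.47 for Fst. Each was positive where the value from all libraries was negative. That fit sets Nanog+E-cadherin- replicate 1 alone against all Nanog+E-cadherin+ libraries, so it mixes population with replicate number. Within pair 1, Crebbp (18.3 against 25.5 CPM), Furin (53.3 against 72.3) and Inhbb (18.9 against 25.6) were lower in Nanog+E-cadherin+. Fst was higher there (0.606 against 0.310 CPM).

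The secreted inhibitor Fst (follistatin) was near the filter, with 0.872 ± 0.237 CPM in Nanog+E-cadherin+ and 2.80 ± 2.16 CPM in Nanog+E-cadherin- (SD, n = 3 each), and Cer1, an inhibitor of Nodal in the embryo, had at most 15 counts. The membrane inhibitor Bambi had a blocked log2 fold change of -0.35 ± 0.37 (SE), and Tmeff1, which binds Tdgf1, averaged 22.4 ± 10.3 CPM in Nanog+E-cadherin+ and 22.7 ± 13.4 CPM in Nanog+E-cadherin-. Among target genes, Pmepa1 averaged 34.1 ± 8.05 CPM in Nanog+E-cadherin+ and 28.4 ± 12.6 CPM in Nanog+E-cadherin- (SD, n = 3 each). Wnt3 was low, at 1.26 ± 0.635 CPM in Nanog+E-cadherin+ and 2.65 ± 0.596 CPM in Nanog+E-cadherin-, with no overlap. It was the single one of the 33 genes to be lower in this way, where 3.25% of all genes were. The mesendoderm genes Eomes, T, Mixl1, Gsc, Foxa2, Lhx1 and Sox17 were below the filter.

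The genes whose values over the 6 libraries were most like those of Tdgf1 were Ube2t, Ppp2r5c, Nup107, Cklf and Pold3, with Pearson r of log2(CPM + 1) between 0.992 and 0.996. The likeness was ranked over 10673 genes with a mean of at least 5 CPM in the higher population, of which 276 had an r of at least 0.9. Ube2t, a ubiquitin-conjugating enzyme of the Fanconi pathway, had 40.8, 21.4 and 18.6 CPM in Nanog+E-cadherin+ replicates 1, 2 and 3, against 21.1, 9.004 and 11.1 CPM in Nanog+E-cadherin- replicates 1, 2 and 3. Its libraries fell in the same order as those of Tdgf1 within each population, over a far smaller range.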

How the data were processed

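RNA from 6 sorted libraries was sequenced after TruSeq library preparation, per the labels' protocols. Per the submitters' processing notes, the tools were Bowtie and RSEM 1.2.4 and the build was mm9. Aligner settings, strand use and annotation release: not given in the sources used here. Without strand, reads of overlapping antisense genes cannot be separated. Per the file headers, the authors deposited expected counts, TPM and FPKM for each gene. Expected counts were rounded to whole numbers for tests. TPM gave levels and the limma alternatives, as log2(TPM + 1) and log2(TPM + 0.1). FPKM was not used.

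The test was edgeR 4.0.16 (R 4.3.3) with TMM scaling, a low-count filter (filterByExpr, minimum count 10 and total 15) and quasi-likelihood fits across the whole table with population as the only term and Benjamini-Hochberg adjustment, with a threshold of 0.05. CPM values are TMM-scaled. A positive log2 fold change means higher in Nanog+E-cadherin+. Alternatives were the replicate block, DESeq2 1.42.0, limma 3.58.1, other scalings, no filter and left-out libraries. The fits were tested on simulated data. Replicate numbers were taken as pairs because, across genes, deviations from the group means correlated at 0.75, 0.41 and 0.48 within equal numbers, all above 0.1, and between -0.62 and 0.12 otherwise. The labels are silent on what a number marks, so the block rests on this correlation. Intervals of ratios within pairs are exact (Clopper-Pearson) from the counts, cover counting error only, and take TMM scaling as fixed.

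The 10 members, gene lists, naming rule and alternatives were all chosen with earlier results of these data known. The rule names all 10 genes, 12 fixed pathway genes, the 2 of smallest blocked p in each pathway list, up to 2 leading genes per marker list, and the 5 genes most like Tdgf1. Zfp42, Tmeff1, Cdh1, Orc4 and the listed genes below the filter were named after their values were seen. Stretches of 50 bases of the members' GRCm38 GENCODE transcripts were looked up in all other genes. Shared stretches made up 8.86% for Tdgf1 (with the pseudogene Tdgf1-ps1), 17.9% for Lefty1 and 12.0% for Lefty2 (mostly with each other), 6.98% for Acvr2a (with Orc4), 1.77% for Gdf3 and 0% for the other 5. Reads from shared stretches are apportioned by RSEM, which makes the values of these genes less certain. The share of stretches is no measure of the error in the counts, which was not estimated. Apart from the promoter window, coordinates are not printed, because the reference is of another build.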

Additional observations from a re-analysis of the deposited data

How the results depend on the processing

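With the replicate block 1 of the 10 genes was called, Tdgf1. The count was also 1 when DESeq2 size factors replaced TMM in that fit, in DESeq2's Wald test with the block, and in the blocked fits that dropped both libraries numbered 1, 2 or 3. It was 0 with the block and library totals and in each fit without a block. Calls over all genes numbered 0 with population only and 41 with the block, 35 and 44 when that fit used library totals or DESeq2 size factors, 1 with no filter on low counts, 17 in DESeq2's Wald test and 300 in that test with the block, and 182, 140 and 449 in the blocked fits that dropped pair 1, 2 and 3. The cause of these differences was not tested. Of the 33 other pathway genes 0 were called in every alternative. Tdgf1, Nodal and Acvr2b kept their sign in all 20 alternatives, while Gdf3, Lefty1, Lefty2, Acvr1b, Acvr2a, Smad2 and Smad3 changed it in 2, 3, 1, 2, 3, 4 and 4 of them. Dropping 1 library, or Nanog+E-cadherin- replicates 2 and 3 together, unbalances the replicate numbers, so those fits mix population with replicate number. Depth limits Lefty2 most, with 8 counts in Nanog+E-cadherin- replicate 3.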

Other observations

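Of the 49 other pathway genes, 16 were below the filter on low counts, and 1 of these, Sox17, had no count in any library. Of the rest, 11 were highest in Nanog+E-cadherin- replicate 2 and 1 in replicate 3, the libraries with the most counts from olfactory and vomeronasal receptor genes. The same count over all genes below the filter was not made, so nothing is read from it. Some of these places rest on very few counts, such as Cfc1 with at most 1 and Fgf8 with at most 4. Eomes, a T-box factor of early mesendoderm, had 4.62 CPM in Nanog+E-cadherin- replicate 3, and Lhx1, a homeobox factor, 4.16 CPM in Nanog+E-cadherin- replicate 2. Outside those libraries no gene of the 16 exceeded 0.816 CPM. The part of background sequence in these values was not tested.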
